A study of Mus musculus with 12 samples.

Results

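mmu-miR-210-3p is the 3' arm microRNA of the mouse Mir210 hairpin, and it was followed here across 12 arrays of LLC1, a mouse line grown in culture and derived from the Lewis lung carcinoma. It was taken as the single entry of that name among the 576 entries of an Agilent 1-colour microRNA array, where 2 probes with 10 spots each measure it. The arrays fall into 4 groups of 3: cells left unirradiated as control, cells irradiated once with 2 Gy, cells irradiated once with 10 Gy, and cells irradiated 5 times with 2 Gy each, written 5x2 Gy, which adds up to 10 Gy. RNA was taken 4 h after irradiation, and all groups are of 1 cell line with no genetic change named. The labels call the arrays biological replicates but name no separate culture or day, so p-values measure the spread between these samples.

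MicroRNAs are short RNAs that guide a silencing complex to messenger RNAs, mostly by pairing of the seed, bases 2 to 8 from the 5' end. miR-210-3p is the best known microRNA of the response to low oxygen: the transcription factor HIF1A, which is stable when oxygen is scarce, switches its gene on in mouse and human cells. Known targets include the iron-sulphur cluster scaffold ISCU, through which it lowers mitochondrial respiration. In human cells it has been described as a repressor of RAD52, a protein of homology-directed repair of DNA double-strand breaks, the lesions that ionizing radiation makes. The comparisons ask whether single or fractionated doses changed its level.

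The mature microRNA, its partner from the other arm of the hairpin and the hairpin itself are given here to place the measured arm and its seed. The sequences are RefSeq's for assembly GRCm38.p6, written 5' to 3', with the seed in capitals in the 2 mature forms and the whole measured arm in capitals in the hairpin.
mmu-miR-210-3p: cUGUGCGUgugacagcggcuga
mmu-miR-210-5p: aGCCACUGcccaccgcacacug
Mir210 hairpin: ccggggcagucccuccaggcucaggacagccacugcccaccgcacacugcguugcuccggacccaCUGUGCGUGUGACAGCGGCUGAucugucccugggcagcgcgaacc
The hairpin of 110 bases lies on the minus strand at chr7:141221384-141221493, and the measured arm at chr7:141221407-141221428, which is bases 66 to 87 of the hairpin. No other gene of the RefSeq table overlaps Mir210, and its nearest neighbours there are Rassf7 and Gm51460. The 5' arm has no probe on this array.

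The seed UGUGCGU belongs to miR-210-3p alone among 1679 mature mouse names in the RefSeq table, so no family member with the same seed was there to be measured beside it. A CG pair of bases stands in that seed, as in the seeds of 219 of the 1679 names. Among the 101 microRNAs that were both tested and matched to a sequence, 7 had such a seed. The mature strand is 63.6% G and C, against a median of 45.5% over those 101, of which 2 were richer in G and C.

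miR-210-3p was a dim but mostly detected microRNA in these cells. A probe counted as detected where more than 0.5 of the spots kept for it were well above background, and a microRNA when at least 1 of its probes was. By that rule miR-210-3p was detected on 10 of the 12 arrays and not on control replicate 2 or 10 Gy replicate 2. The brighter probe, A_54_P1443, was detected on 10 arrays and the dimmer one, A_54_P1444, on 8. The scanner software's own flag for the whole microRNA was set on 11 arrays and missing on control replicate 2.

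Spot by spot, detection varied within the groups. Of the kept spots of both probes, 14 of 20, 0 of 18 and 20 of 20 were well above background on control replicates 1, 2 and 3. On the 2 Gy arrays they were 16 of 20, 20 of 20 and 9 of 20, and on the 10 Gy arrays 16 of 20, 2 of 19 and 19 of 19. The 5x2 Gy arrays had 20 of 20, 16 of 16 and 18 of 18. Thus the 5x2 Gy arrays were the ones on which every kept spot was well above background in all 3 replicates. Every other group held at least 1 array with fewer than its full number. The 5x2 Gy arrays also detected the most microRNAs of any kind, 120, 137 and 124, against 48 to 115 on the other arrays. Full detection of miR-210-3p on them is therefore not read as a result about this microRNA.

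The background-subtracted spot signal, in the scanner's linear units and averaged over both probes, was 34.8, 12.6 and 132 on control replicates 1, 2 and 3. It was 45.8, 130 and 26.5 on the 2 Gy arrays, 42.9, 21.1 and 131 on the 10 Gy arrays, and 99.3, 184 and 138 on the 5x2 Gy arrays. Control replicate 2 was the lowest of the 12 and 5x2 Gy replicate 2 the highest, and the ranges of the 4 groups overlapped. Against the mean of the negative-control spots of the same array, the miR-210-3p signal was 4.36, 1.57 and 17.9 times as high on the control arrays. That ratio was 7.83, 20.4 and 2.74 on the 2 Gy arrays, 6.44, 4.29 and 20.5 on the 10 Gy arrays, and 14.9, 25.8 and 21.3 on the 5x2 Gy arrays. On every array the mean signal thus lay above the mean of the negative controls, by the least on control replicate 2.

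**Figure D1:**
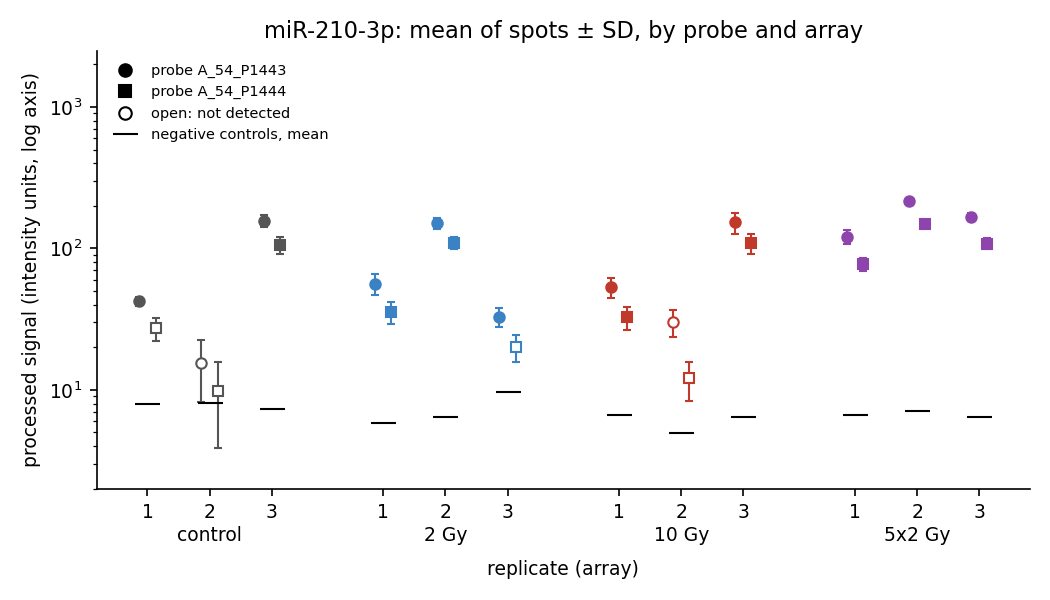
Background-subtracted signal (linear units, log axis) of the 2 miR-210-3p probes on each of the 12 arrays. Points are the mean of the kept spots with the standard deviation between those spots, beside the mean of the negative-control spots. The brighter probe reads 218 on 5x2 Gy replicate 2 and 15.4 on control replicate 2, against negative-control means of 4.92 to 9.69 over the 12 arrays.

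The 2 probes kept a near constant distance. A_54_P1443 read 0.46 to 0.72 higher than A_54_P1444 on the log2 scale on the 12 arrays. Within an array the spots of a probe scattered with a median coefficient of variation of 13.5% for A_54_P1443 and 17.3% for A_54_P1444. The standard error of a probe's mean had medians of 0.06 and 0.08 on the log2 scale. The highest, 0.24 and 0.28, both belonged to control replicate 2, so the level of that array is the least precise.

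The arrays differed in brightness as a whole, so levels were set relative to each array. The yardstick was the 75th percentile of the 78 probes detected on all 12 arrays, which ran from 110.5 to 1102 signal units. The dimmest array was control replicate 2, and the 3 brightest were the 5x2 Gy arrays. Across the 12 arrays the log2 signal of miR-210-3p followed the log2 percentile closely, with Pearson's r of 0.95 (permutation p = 8e-05, adjusted over 2 relations 0.00016) and Spearman's rho of 0.86 (permutation p = 0.0005, adjusted 0.001). Leaving out control replicate 2 and 5x2 Gy replicate 2, whose brightness was farthest from the median, r was 0.93. Within the 8 arrays of slide 1 it was 0.94 (exact p = 0.00198). The level relative to the percentile followed it less, with r of 0.45 (permutation p = 0.150) and rho of 0.44 (permutation p = 0.156), r of 0.47 without those 2 arrays, and 0.48 within slide 1 (exact p = 0.223). A pooled r mixes arrays of different doses, which differ in brightness. The comparisons below therefore use the relative level, and unscaled differences appear only as an alternative.

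**Figure D2:**
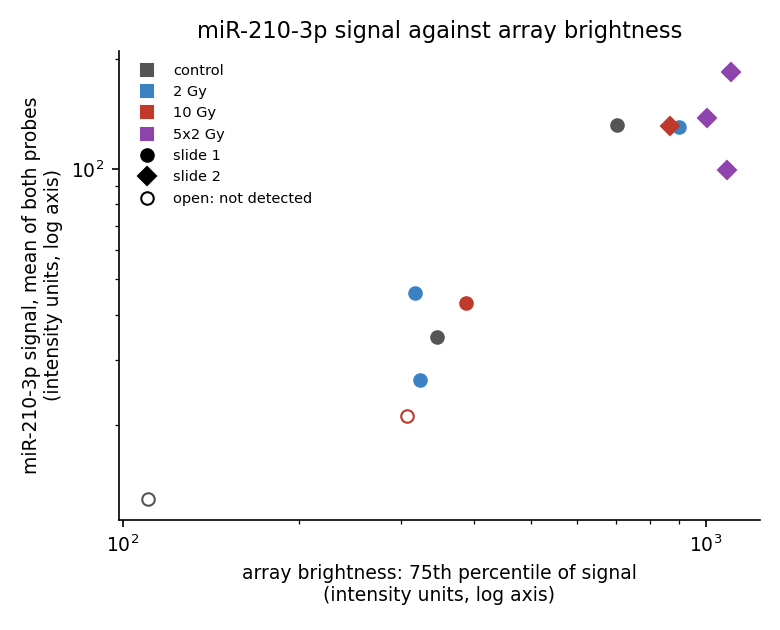
miR-210-3p signal, as the mean of both probes, against the brightness of the array, its 75th percentile. Both are in linear units on log axes, with 1 point per array and 1 colour per group. Open points mark the arrays on which it was not detected. The signal climbs along the brightness (r = 0.95 on the log2 scale).

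The relative level of miR-210-3p, in log2 of the fraction of the array's 75th percentile, was -3.35, -3.17 and -2.45 in control replicates 1, 2 and 3. In the 2 Gy arrays it was -2.82, -2.80 and -3.65, in the 10 Gy arrays -3.22, -3.70 and -2.75, and in the 5x2 Gy arrays -3.49, -2.61 and -2.90. Each group held at least 1 array near the top of the whole range and 1 near the bottom, and the groups overlapped in all 6 pairs. The level of control replicate 2 rests on spots not well above background, and on 10 Gy replicate 2 the dimmer probe lay at the floor of -4.06 set for all probes.

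In order of their means, control cells came highest at -2.99 ± 0.48, then 5x2 Gy at -3.00 ± 0.45, 2 Gy at -3.09 ± 0.48 and 10 Gy at -3.22 ± 0.48 (SD, n = 3 each). The whole span from the highest to the lowest group mean was smaller than the SD of any group, so no neighbours in that order differed beyond their spread. An F test over the 4 groups gave F = 0.17 (limma, adjusted p = 1 over the 118 microRNAs tested). By that test 7 of the 118 microRNAs passed the threshold of 0.05 (5.93%), and miR-210-3p ranked 98 from the smallest p. Because these are RNAs of whole cultures, fewer cells holding the microRNA and less of it per cell cannot be told apart.

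**Figure D3:**
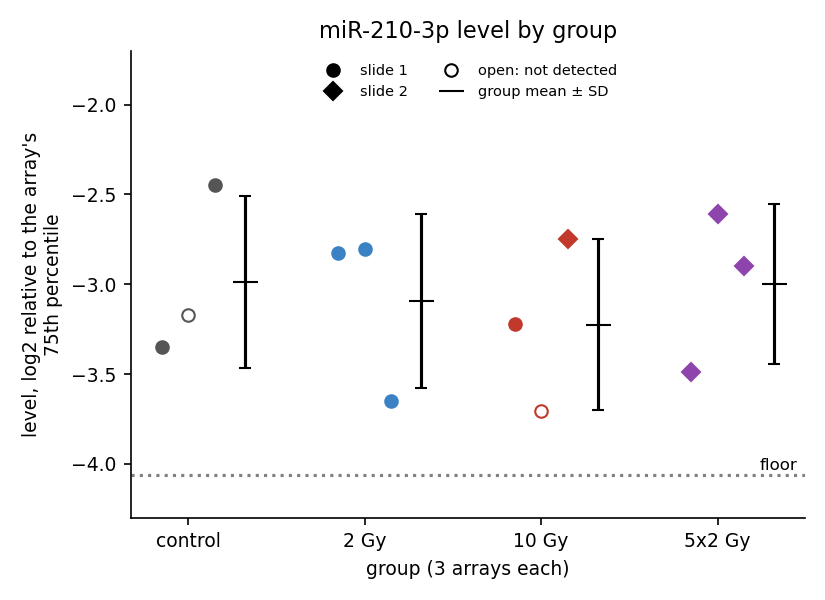
Level of miR-210-3p relative to the array (log2), 1 point per array, with the mean and SD of each group of 3. Open points mark the arrays on which it was not detected, control replicate 2 and 10 Gy replicate 2. The group means lie between -3.22 and -2.99.

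None of the comparisons with control passed the test. After 2 Gy the level stood at 0.930 times that of control cells, with a 95% interval of 0.513 to 1.68 times, which is a log2 change of -0.11 ± 0.38 (SE, limma, adjusted p = 1). After 10 Gy it stood at 0.850 times control (0.469 to 1.54), a log2 change of -0.24 ± 0.38 (SE, limma, adjusted p = 0.849). After 5x2 Gy it stood at 0.993 times control (0.548 to 1.80), a log2 change of -0.010 ± 0.38 (SE, limma, adjusted p = 1). Of the 9 pairs of 1 irradiated and 1 control array, the irradiated array was higher in 4 for 2 Gy, 3 for 10 Gy and 4 for 5x2 Gy. Each interval holds the changes, in either direction, that 3 arrays a group could not exclude.

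The share of other microRNAs that passed gives the background. In 2 Gy minus control, 0 of 118 passed in limma (0%), with 11 at an unadjusted p under 0.05. In 10 Gy minus control 1 passed (0.847%, 24 unadjusted), and in 5x2 Gy minus control 15 passed (12.7%, 36 unadjusted), all of them higher after 5x2 Gy. miR-210-3p ranked 81, 76 and 96 from the smallest p of 118 in those 3 comparisons. The groups of miR-210-3p overlapped in all 3, while groups that did not overlap were found for 6.78%, 15.3% and 33.1% of the 118 in the same order.

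Fractionation at the same total dose was the next question. The level after 5x2 Gy was 1.17 times that after a single 10 Gy (95% interval 0.645 to 2.12), a log2 difference of 0.22 ± 0.38 (SE, limma, adjusted p = 1). In 6 of 9 pairs the 5x2 Gy array was above the 10 Gy array. In that comparison 3 of 118 microRNAs passed (2.54%), and 26.3% had groups that did not overlap. Slide and group are tied here. Of the 2 glass slides that the file headers tell apart, slide 1 held all control and 2 Gy arrays and replicates 1 and 2 of 10 Gy, and slide 2 held 10 Gy replicate 3 and all 5x2 Gy arrays. On slide 2 alone, 5x2 Gy minus the single 10 Gy array was -0.25, opposite in sign to the value over all arrays, and the fit with slide as a block gave the same -0.25 (limma, adjusted p = 1). With slide as a block, 5x2 Gy minus control was -0.73 (limma, adjusted p = 0.687), a value that rests on that 1 array of 10 Gy as the link between the slides. On slide 1 alone, 2 Gy minus control was -0.11 and 10 Gy minus control -0.47 (limma, adjusted p = 1 and 0.611).

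No dose response was detectable over the single doses. A straight line through 0, 2 and 10 Gy had a slope of -0.021 on the log2 scale per Gy, with a 95% interval of -0.10 to 0.06 (limma, adjusted p = 0.860), and 0 of 118 microRNAs passed for that slope (0%, 15 at an unadjusted p under 0.05). Between the 2 single doses, 10 Gy minus 2 Gy was -0.13 ± 0.38 (SE, limma, adjusted p = 1), with 0 of 118 passing (0%, 2 unadjusted) and 5.93% with groups apart. For 5x2 Gy minus 2 Gy the difference was 0.09 ± 0.38 (SE, limma, adjusted p = 1), where 5 of 118 passed (4.24%) and 30.5% had groups apart. The exact two-sided permutation test of each pair of groups gave p between 0.6 and 1 for all 6 pairs, adjusted 1 for each, and with 3 arrays against 3 it cannot go below 0.1. The 2 probes, fitted separately, gave changes from control of -0.11 and -0.10 for 2 Gy, -0.22 and -0.25 for 10 Gy and -0.02 and -0.002 for 5x2 Gy, the value of A_54_P1443 first.

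**Figure D4:**
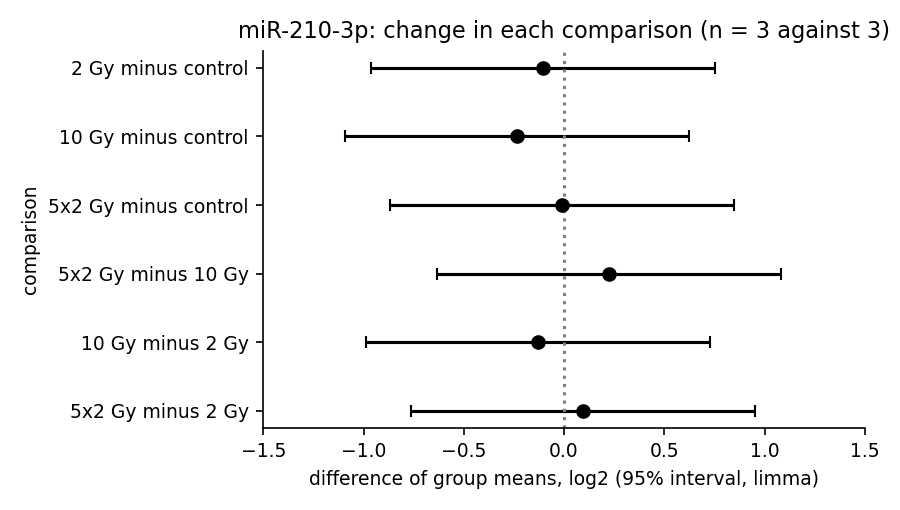
Log2 change of miR-210-3p in the 6 comparisons of groups, as the limma estimate with its 95% interval, each the group named first minus the one named after it. All 6 intervals cross 0, and the estimates lie between -0.24 and 0.22.

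The scatter between arrays, not the size of the group differences, set these intervals. The residual SD of miR-210-3p within groups was 0.472 on the log2 scale, while the 71 microRNAs that lay above the floor on all arrays had a median of 0.181 and a range of 0.0395 to 0.969. Among the other 70, 5 scattered more than miR-210-3p and 65 less.

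Scaling moved the median 5x2 Gy difference of the 71 microRNAs above the floor, and the value of miR-210-3p with it. In 5x2 Gy minus control the median change of the 71 microRNAs above the floor was 0.17, and miR-210-3p lay at -0.18 relative to it. With the percentile taken over all probes the median became 1.68 and miR-210-3p lay at -0.26 relative to it. Without scaling the median was 1.80 and miR-210-3p -0.40 relative to it. In the authors' deposited log2 values, which were centred on each array's mean, the median was 1.64 and miR-210-3p -0.12 relative to it. Median scaling gave a median of -0.04 with miR-210-3p at -0.18 relative to it, and quantile scaling 0.12 and -0.07. The 1 setting in which miR-210-3p passed was the percentile over all probes, in 5x2 Gy minus 2 Gy, with a change of 1.45 (limma, adjusted p = 0.0479). In that setting 109 of the 118 microRNAs passed, the median change was 1.54, and miR-210-3p lay at -0.09 relative to it.

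Which microRNAs varied from array to array most like miR-210-3p was read from Pearson's r of the relative levels over the 12 arrays, among the other 70 above the floor. These r are a description: the arrays share their scaling and their groups, and the median r over the 70 was 0.10. The 5 highest were miR-20a-5p at 0.81, miR-19a-3p at 0.78, miR-20b-5p at 0.71, and miR-15a-5p and miR-19b-3p at 0.68 each. Their r stayed between 0.68 and 0.86 after each group's mean was taken off, and between 0.75 and 0.81 over the 8 arrays of slide 1. Their own r with array brightness ran from 0.10 to 0.28, against 0.45 for miR-210-3p. miR-20a and miR-19a are made from the miR-17 to miR-92a cluster, a MYC-driven group of growth-promoting microRNAs, and miR-20b from its copy on the X chromosome. miR-19b-3p has 2 genes, Mir19b-1 and Mir19b-2, so its signal cannot be assigned to 1 locus. The miR-17 to miR-92a cluster did not follow miR-210-3p as a whole. Its miR-18a-5p had r of 0.60 and the entry miR-17_v17.0 0.47, but miR-92a-3p had 0.08 and miR-17-3p -0.29. miR-15a, which represses cyclins and BCL2, comes from the Dleu2 locus. The mature sequences of the 5 highest are given to show the shared seeds, in capitals, none of which is the seed of miR-210-3p.
mmu-miR-20a-5p: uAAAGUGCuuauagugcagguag
mmu-miR-20b-5p: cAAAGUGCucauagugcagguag
mmu-miR-19a-3p: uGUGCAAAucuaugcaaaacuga
mmu-miR-19b-3p: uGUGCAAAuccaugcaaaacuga
mmu-miR-15a-5p: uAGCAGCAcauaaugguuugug
The first 2 share the seed AAAGUGC and the next 2 the seed GUGCAAA. At the other end stood miR-23a-3p at -0.65, miR-23b-3p at -0.63 and miR-125b-5p at -0.58, of which the miR-23 pair are themselves listed among microRNAs regulated by low oxygen. The RefSeq sequences of miR-23a and miR-125b are below, for comparison.
mmu-miR-23a-3p: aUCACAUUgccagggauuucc
mmu-miR-125b-5p: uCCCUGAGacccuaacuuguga

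**Figure D5:**
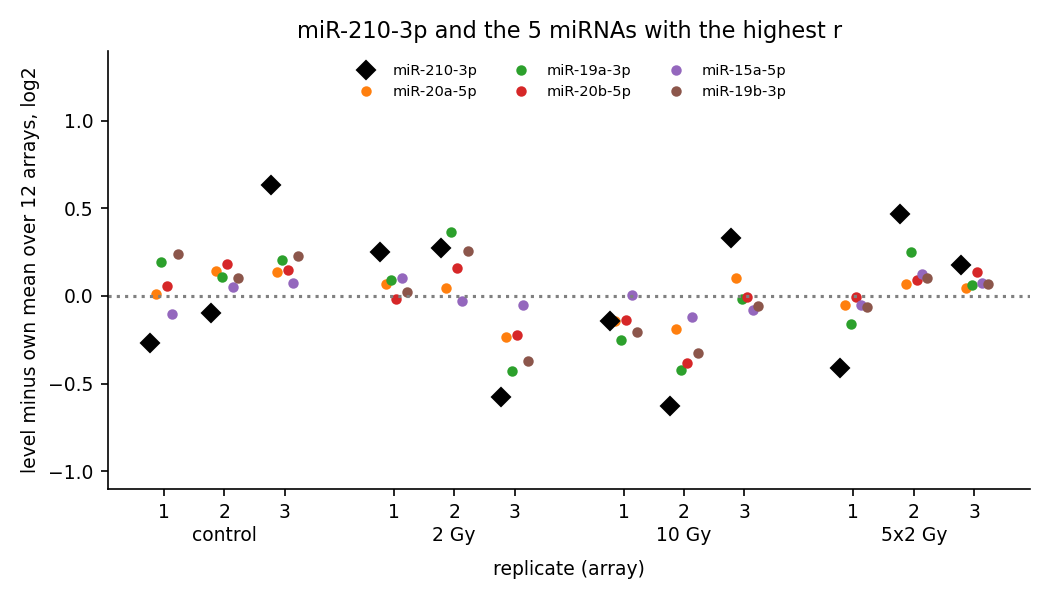
Relative level (log2) of miR-210-3p and of the 5 microRNAs with the highest r, each minus its own mean over the 12 arrays, 1 set of points per array. All 6 are low in 2 Gy replicate 3 and 10 Gy replicate 2, and miR-210-3p swings more widely than the other 5.

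Other microRNAs regulated by low oxygen were read beside miR-210-3p. Of a textbook list of 15, 14 are on the array and 11 were tested, miR-210-3p included. After 2 Gy and after 10 Gy, 0 of the 11 passed. The smallest p belonged to miR-107-3p, a paralogue of miR-103, at 0.13 for both doses (limma, adjusted p = 0.142 and 0.103). It was followed by miR-26b-5p at 0.32 and 0.25 (limma, adjusted p = 0.403 and 0.249). After 5x2 Gy 3 of 11 rose and 0 fell, beside 15 of all 118 tested (12.7%). miR-26a-5p, which MYC holds down and which represses EZH2, rose by 0.44 (limma, adjusted p = 0.0354). miR-24-3p, which represses the histone H2AX in human blood cells, rose by 0.32 (limma, adjusted p = 0.0453), and miR-107-3p by 0.20 (limma, adjusted p = 0.00623). The list's median change in 5x2 Gy minus control was 0.20, beside 0.0004 over all 118 tested, many of which lie at the floor, and 0.17 over the 71 above it. In the other comparisons 0 of the 11 passed.

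The levels behind the 3 calls did not overlap between 5x2 Gy and control, as was so for 39 of all 118 tested (33.1%). miR-26a-5p stood at -1.36, -1.22 and -1.29 in the 5x2 Gy arrays, against -1.71, -1.91 and -1.57 in control arrays. miR-24-3p stood at -0.16, -0.28 and -0.23 in the 5x2 Gy arrays, against -0.33, -0.73 and -0.59 in control arrays. miR-107-3p stood at -2.96, -2.99 and -2.94 in the 5x2 Gy arrays, against -3.23, -3.14 and -3.13 in control arrays, where control replicate 2 did not detect it. For miR-24-3p the closest arrays lay at -0.28 in 5x2 Gy and -0.33 in control.

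MicroRNAs that act on HIF1A or on proteins that control its stability were a list of 10, of which 9 are on the array and 7 were tested. After 5x2 Gy 1 of the 7 rose and 0 fell, a share close to the 12.7% over all 118. It was miR-199a-5p, which represses Hif1a in rat heart cells, at -1.49, -1.65 and -1.58 in the 5x2 Gy arrays, against -1.91, -1.77 and -2.03 in control arrays. Its change was 0.33 (limma, adjusted p = 0.0103). In 5x2 Gy minus 2 Gy it was 0.34 (limma, adjusted p = 0.0138), where 5 of 118 passed (4.24%). The 2 Gy and 5x2 Gy arrays also lay on different slides. The median change of the 7 in 5x2 Gy minus control was -0.03. After the single doses 0 of the 7 passed, with miR-322-5p at 0.29 and miR-31-5p at -0.49 after 2 Gy (limma, adjusted p = 0.261 and 0.518). After 10 Gy the smallest p belonged to miR-20b-5p at -0.31 and miR-322-5p at 0.22 (limma, adjusted p = 0.236 for both). The same miR-20b-5p was among the 5 patterns closest to miR-210-3p.

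MicroRNAs described as repressing double-strand break repair or its signalling were 14, all on the array, and 10 were tested. After 2 Gy and 10 Gy 0 of the 10 passed. There the smallest p belonged to miR-107-3p and to miR-18a-5p, where miR-18a-5p stood at -0.27 and -0.49 (limma, adjusted p = 0.712 and 0.242). After 5x2 Gy the calls in this list were miR-107-3p and miR-24-3p, already given, beside 12.7% called over all 118, and miR-100-5p. miR-100-5p, which represses the damage kinase ATM in human glioma cells, entered the test only because it was detected on all 3 arrays of 5x2 Gy, so its call is not read as a result. It stood at -3.82, -3.83 and -3.79 in the 5x2 Gy arrays, against -4.01, -4.06 and -4.06 in control arrays, where it was at the floor in 2 of 3 and detected on 1. With the floor doubled its change was 0, and with a lower floor it was 0.94 (limma, adjusted p = 1 and 0.0813).

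Slide and scaling bear on the 4 rises of miR-107-3p, miR-26a-5p, miR-24-3p and miR-199a-5p after 5x2 Gy. All 5x2 Gy arrays lay on slide 2 and all control arrays on slide 1. With slide as a block, 0 of the 4 passed in 5x2 Gy minus control (limma, adjusted p between 0.254 and 0.594). The changes were then 0.22 for miR-107-3p, 0.25 for miR-26a-5p, 0.31 for miR-24-3p and 0.29 for miR-199a-5p. Without the block they were 0.20, 0.44, 0.32 and 0.33 in the same order. The blocked fit rests on 1 array as the link between the slides, so whether slide accounts for the rises was not tested. Median scaling also ended all 4 calls, with changes of 0.022, 0.22, 0.11 and 0.11 in that order (limma, adjusted p between 0.372 and 0.888). Quantile scaling ended the calls of miR-26a-5p, miR-24-3p and miR-199a-5p and left miR-107-3p at 0.28 (limma, adjusted p = 0.0178). With array brightness as a covariate miR-24-3p did not pass, at 0.26 (limma, adjusted p = 0.156). In that fit miR-26a-5p was at 0.19, miR-199a-5p at 0.43 and miR-107-3p at 0.19 (limma, adjusted p = 0.0471, 0.00667 and 0.0252). Under normexp background correction the change turned to -0.40 for miR-107-3p, -0.02 for miR-26a-5p and -0.17 for miR-199a-5p. Counting each array left out in turn, the call held in 24 of 29 alternatives for miR-107-3p and 24 of 30 for miR-199a-5p. It held in 17 of 30 for miR-26a-5p and 7 of 30 for miR-24-3p. These counts include leaving out single-dose arrays, which kept the change as it was. They include the percentile over all probes, no scaling and the deposited values, where 102, 86 and 84 of 118 passed. miR-107-3p and miR-199a-5p passed whichever array was left out. miR-26a-5p did not pass without any one 5x2 Gy array or control replicate 1 or 2 (limma, adjusted p between 0.0597 and 0.118). With 1 array left out, miR-24-3p passed only without control replicate 1.

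Markers of cell types were read against the label of the line. Of 6 epithelial microRNAs, the miR-200 family and miR-205, 0 were detected on any array, while 4 of 5 mesenchymal ones were. miR-199a-3p, miR-199a-5p and miR-214-3p were detected on all 12, miR-143-3p on 7 and miR-145a-5p on 0. Of those 4, 2 rose in 5x2 Gy minus control, beside 12.7% over all 118: miR-199a-5p as given and miR-214-3p by 0.46 (limma, adjusted p = 0.0407). With slide as a block, a fit that rests on 10 Gy replicate 3 to link the slides, miR-214-3p did not pass, at 0.71 (limma, adjusted p = 0.254). Its call held in 10 of 30 alternatives, counted in the same way. Leaving out any one control or 5x2 Gy array ended it (limma, adjusted p between 0.0649 and 0.137). It is named here after its values were seen. Of 6 blood cell microRNAs, miR-142a-3p was detected on 12 arrays and miR-142a-5p on 6, and miR-223-3p, miR-150-5p, miR-451a and miR-144-3p on 0. Endothelial miR-126a-3p was detected on 3 arrays and miR-126a-5p on 0. Muscle miR-206-3p was detected on 2 arrays, and miR-1a-3p and miR-133a-3p on 0. The nerve or liver microRNAs miR-124-3p, miR-9-5p and miR-122-5p were detected on 0. Between 48 and 137 microRNAs were detected per array. The miR-200 family was thus not detected on these arrays of a line labelled a carcinoma, and of the blood list only miR-142a was.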

How the data were processed

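The authors used Agilent Feature Extraction (version 10.7.3.1 in the submitters' processing notes). Its spot signals are linear intensity, background-subtracted and spatially detrended, per the file headers. The deposited spot flags are 0 or 1, per the file headers. The authors' deposited table holds log2 values, which equal the log2 of the signal (under 1 set to 1) plus a constant per array.

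Control and outlier spots were left out, the spots of a probe averaged and divided by the array's 75th percentile, a floor of 0.0598 of it set, and log2 taken. Probes detected on at least 3 arrays were averaged to a microRNA's level. It was tested if detected on all 3 arrays of a group (118 of 576). limma 3.58.1 in R 4.3.3 was fitted to all 12 arrays and all 118 microRNAs, two-sided, with Benjamini-Hochberg adjustment and a threshold of 0.05. Permutation tests used scipy 1.17.1. The fit was tested on simulated data. miR-210-3p, the lists and the rule for naming microRNAs (called list members, up to 4 per list and comparison, otherwise the 2 with the smallest p, and the 5 highest and 3 lowest r) were chosen with earlier results of these data known. Matching was by name, and 101 of 118 tested names had a RefSeq sequence. Array brightness, not a read depth, and the number of arrays limit the precision. Alternatives covered scaling, background, floor, spots, probes, slide, brightness, replicate number and each array left out. The planned normexp correction named a mean signal that the scanner files lack, so the median signal was used.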

Additional observations from a re-analysis of the deposited data

Results flagged for a closer look

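Of the 120 spots of probe A_54_P1443 over the 12 arrays, 5 were left out as outliers by the scanner software's flags. One of them, on 10 Gy replicate 3, read 25388 signal units, against 835 for the highest left-out spot of the control arrays. The kept spots of that probe on that array averaged 153. With outlier spots kept, 10 Gy minus control was 0.020 and 5x2 Gy minus 10 Gy -0.49.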

How the results depend on the processing

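For miR-210-3p 216 alternative values were computed over the 6 comparisons and the slope. Of these 165 kept the direction and stayed short of the threshold, 50 turned the sign of changes that were themselves within error, and 1 passed (limma, adjusted p = 0.0479). Changes below are log2 values of miR-210-3p. With the percentile over all probes, 10 Gy minus control was 0.11, 10 Gy minus 2 Gy 0.14, 5x2 Gy minus control 1.42, the slope 0.013 and 5x2 Gy minus 2 Gy 1.45. Without scaling, 2 Gy minus control was 0.15, 10 Gy minus control 0.10, 5x2 Gy minus control 1.4 and the slope 0.0053. In the authors' deposited log2 values, 2 Gy minus control was 0.36, 10 Gy minus control 0.23, 5x2 Gy minus control 1.53 and the slope 0.011. Agilent's total gene signal, which is 0.1 on control replicate 2, gave 1.09, 0.74 and 1.04 for 2 Gy, 10 Gy and 5x2 Gy minus control, -0.051 for 5x2 Gy minus 2 Gy and a slope of 0.040. Quantile scaling gave 0.14, 0.020 and 0.047 for the same 3 groups minus control and -0.094 for 5x2 Gy minus 2 Gy. Median scaling gave -0.056 for 5x2 Gy minus 2 Gy, and the median of spots 0.0080 for 5x2 Gy minus control. The floor changed the size of 10 Gy minus control but not its sign. With the floor 4 times lower it was -0.34 and the slope -0.032, and with the floor doubled -0.11 and -0.0094. With outlier spots kept, 10 Gy minus control was 0.020, 5x2 Gy minus 10 Gy -0.49, 10 Gy minus 2 Gy 0.55 and the slope 0.021, where 1 outlier spot of 10 Gy replicate 3 enters. For 5x2 Gy minus 10 Gy and minus 2 Gy, array brightness as a covariate gave -0.14 and -0.29, and slide as a block -0.25 and -0.62. Slide 2 alone gave -0.25 for 5x2 Gy minus 10 Gy. Of the alternatives chosen after seeing the data, which include slide 2 alone, normexp gave -0.30 and -0.37 for those 2 comparisons. For 5x2 Gy minus control normexp gave -0.70, with a 95% interval of -1.21 to -0.20 (limma, adjusted p = 0.128), and brightness as a covariate -0.58 (limma, adjusted p = 0.400). Subtracting the negative-control mean gave 0.12, 0.024 and 0.41 for 2 Gy, 10 Gy and 5x2 Gy minus control. The cause of these turns was not tested.

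Leaving out 1 array at a time, the change ran between -0.28 and 0.17 for 2 Gy minus control, -0.47 and 0.036 for 10 Gy minus control, and -0.21 and 0.26 for 5x2 Gy minus control. It ran between -0.015 and 0.47 for 5x2 Gy minus 10 Gy, -0.41 and 0.11 for 10 Gy minus 2 Gy, -0.18 and 0.34 for 5x2 Gy minus 2 Gy, and -0.047 and 0.0042 for the slope. None of these passed (limma, lowest adjusted p = 0.539). The values showed no sign that equal replicate numbers pair the arrays. Of 18 same-numbered pairs, 6 had a correlation over 0.1, with a median of -0.05 and a range of -0.90 to 0.78. Only 1 of 12 arrays correlated best with its own number. Such correlations cannot settle whether the arrays were handled in matched sets. With the replicate block, 5x2 Gy minus control stayed at -0.010 and no change of miR-210-3p passed, and the calls over all 118 microRNAs numbered 0 for 10 Gy and 10 for 5x2 Gy against control, and 3 for 5x2 Gy against 2 Gy.

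Counts of called microRNAs moved with the setting. In 5x2 Gy minus control, 15 became 102 with the percentile over all probes, 86 without scaling, 84 in the authors' deposited log2 values, 7 with quantile scaling, 4 with median scaling, 2 with normexp and 1 with slide as a block. It was 28 with brightness as a covariate, 6 over microRNAs detected on all arrays, 25 with a lower and 7 with a doubled floor, 7 without 5x2 Gy replicate 2, 8 without either of the other 5x2 Gy arrays and 9 without 10 Gy replicate 2. The 1 call of 10 Gy minus control became 26 with brightness as a covariate and 7 without control replicate 2, and 0 without any one 10 Gy array. Over all settings, the count for 5x2 Gy against a single 10 Gy ran between 0 and 90, that for 5x2 Gy against 2 Gy between 0 and 109, 2 Gy minus control between 0 and 6, the slope between 0 and 3, and 10 Gy minus 2 Gy stayed at 0. miR-210-3p is not detected on all arrays, so the test over such microRNAs gives it no value, and slide 1 alone gives none for 5x2 Gy.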
